A study of Saccharomyces cerevisiae with 5 samples.

Results

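BY_DEH+ is a strain of the budding yeast Saccharomyces cerevisiae that was grown on DEH (4-deoxy-L-erythro-5-hexoseulose uronate) and on glucose, and the values below compare the DEH library with the glucose library. These are 2 of the 5 libraries of the series, 1 library for each medium, chosen by their strain and carbon source labels. The other libraries come from a second strain, BY_DEH++, grown on DEH, glucose or mannitol; its DEH and glucose libraries are set beside those of BY_DEH+ below. Each library was made by cap analysis of gene expression (CAGE), a method that reads only the capped front end of each RNA and thereby counts transcripts where they begin. The sources used here describe both strains by name alone, so what the strains carry is not known here.

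All 4 cultures were pregrown on solid YPGA and then shaken in 10 mL of a medium based on HC-LN at 30 °C, with the carbon source at 1% (w/v). The BY_DEH+ culture on DEH began at an optical density (OD600) of 0.2 and ended at 0.63 after 3 days, while the BY_DEH+ culture on glucose began at 0.05 and ended at 0.91 after a night. For BY_DEH++, the DEH culture began at 0.05 and ended at 0.55 after 2 days, and the glucose culture began at 0.05 and ended at 0.95 after a night. Culture time and final density therefore differ between the media, and the medium and the stage of the culture cannot be told apart. With 1 library on each side no test was possible, so a difference has no replicate check.

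DEH is the sugar acid left when alginate, the polymer of brown seaweed, is cut to single units. Yeast prefers glucose. While glucose is present, genes for other carbon sources are held off, among them those for respiration, fat breakdown and glucose synthesis from small acids. When glucose is scarce the kinase Snf1 and the activators Cat8, Sip4 and Adr1 switch such genes on, and slow or nearly spent cultures also express stress and stationary-phase genes.

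The DEH library held 10.7 M reads and the glucose library 9.43 M, found from the step between low values, so that 10 CPM (reads of a cluster scaled by the authors to a common library total) was about 107 reads on DEH and 94 reads on glucose. Values under 0.56 CPM on DEH and 0.53 CPM on glucose were listed at 0. Of the genes used as markers in laboratory strains, LYS2 was listed at 0 in both BY_DEH+ libraries. Markers of both mating types were read, such as the receptor gene STE2 of a cells with 13.1 CPM on DEH and 82.4 CPM on glucose and the receptor gene STE3 of alpha cells with 38.1 CPM on DEH and 131 CPM on glucose. Summed over the list, 7 a-cell markers had 409.9 CPM on DEH and 625.8 CPM on glucose, and 5 alpha-cell markers had 484.6 CPM on DEH and 1981 CPM on glucose. Counting only clusters on a gene's strand from 500 bases before to 100 after its coding start, the a-cell sum was 23.3 CPM on DEH and 211 CPM on glucose, and the alpha-cell sum was 435 CPM on DEH and 1895 CPM on glucose. Within such windows BAR1 and ASG7 of a cells and SAG1 and MF(ALPHA)2 of alpha cells were listed at 0 on DEH. The part of mating type in the results was not tested.

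A gene's level is the sum of its deposited start clusters, and the difference is log2 of (CPM + 1) on DEH over (CPM + 1) on glucose. The table held 5009 genes, of which 4877 reached 10 CPM in either library. Of these, 112 genes (2.30%) were 4-fold or more higher on DEH and 165 (3.38%) were 4-fold or more lower. At 2-fold, 516 genes (10.6%) were higher and 483 (9.90%) lower, and the median of all genes was 0.12 on the log2 scale. The 2-fold counts of gene lists below are to be read against these shares of all genes. At 16-fold the counts were 22 higher and 25 lower. Another scaling, by the median of ratios, shifts every log2 value by -0.13 and gives 94 genes higher and 196 lower at 4-fold.

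The largest log2 difference upward was that of ADH2 (YMR303C, chrXIII:873291-874337, minus strand), the alcohol dehydrogenase that oxidises ethanol. It had 11865 CPM on DEH and 30.7 CPM on glucose, a ratio of 387 with a 95% counting interval of 345 to 436. Counting intervals cover counting error only, not the spread between cultures. FBP1 (YLR377C), the fructose-1,6-bisphosphatase of gluconeogenesis, had 893 CPM on DEH and 6.90 CPM on glucose, a ratio of 129.6 with an interval of 102 to 168. CTA1, the peroxisomal catalase, had 878 CPM on DEH and 6.05 CPM on glucose. SPO20, a membrane fusion protein known from spore formation, had 130.3 CPM on DEH and 0.74 CPM on glucose. YIG1, linked to glycerol synthesis, had 43.5 CPM on DEH and was listed at 0 on glucose. The acetate transporter gene ADY2 had 1505 CPM on DEH and 27.7 CPM on glucose, and its relative ATO3, a candidate ammonium exporter, had 2944 CPM on DEH and 77.0 CPM on glucose. At the low end, HXT3, a glucose transporter gene, was listed at 0 on DEH and had 145 CPM on glucose. COS1, of a subtelomeric family with near-identical copies, was listed at 0 on DEH and had 79.7 CPM on glucose, and TIR1, a cold-induced and hypoxic cell wall protein, was listed at 0 on DEH and had 70.9 CPM on glucose. IMD2, an enzyme of guanine nucleotide synthesis with close relatives in the genome, had 11.7 CPM on DEH and 662 CPM on glucose. TPO2, a polyamine exporter, had 3.27 CPM on DEH and 168 CPM on glucose, and RSF2, a zinc-finger regulator linked to respiratory growth, had 4.58 CPM on DEH and 154 CPM on glucose. Of the genes in the plot of levels, CDA1 takes 97.3% of its signal from clusters on the other strand, and ENA5 has near-identical copies. In each of the genes named here before CDA1 the gap between the libraries is far wider than the counting error.

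**Figure D1:**
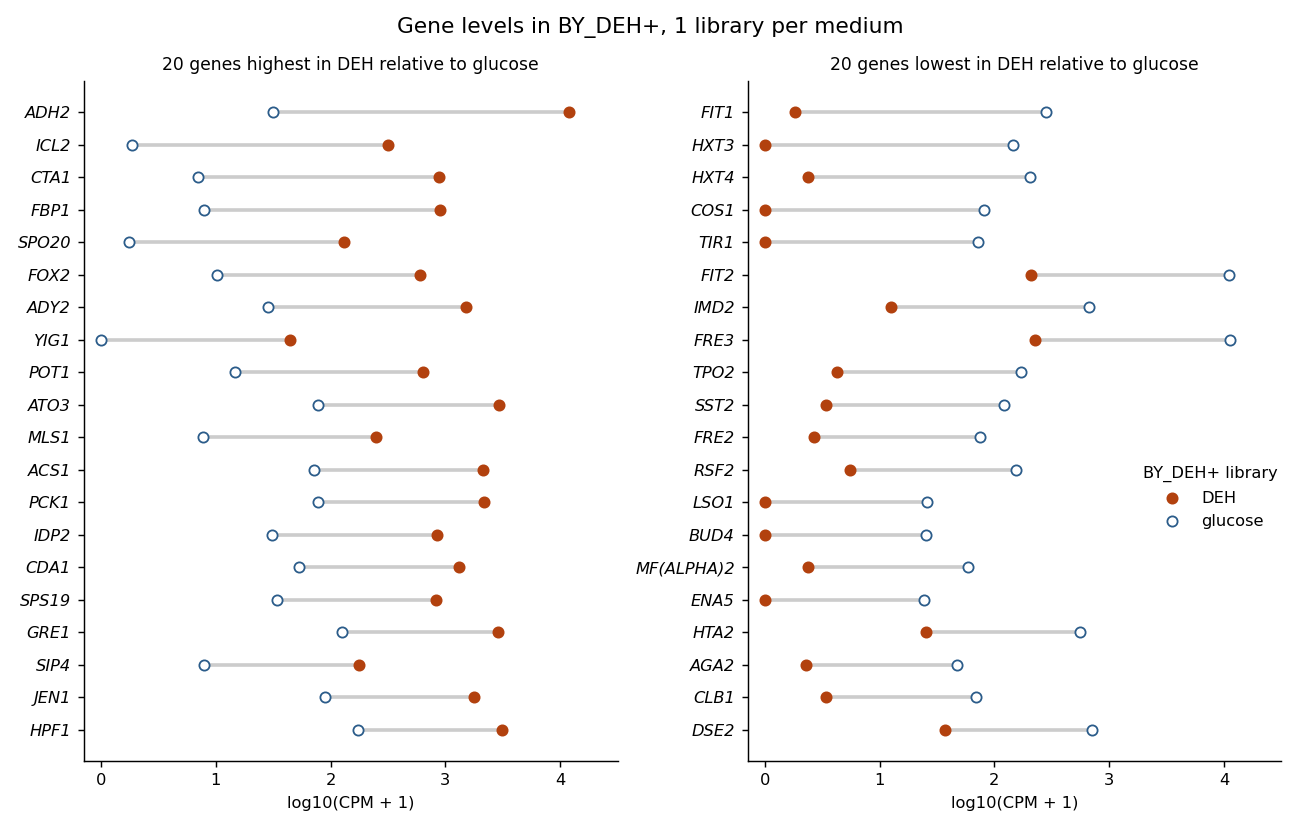
Levels of the 20 genes with the highest and the 20 with the lowest log2 ratio of DEH to glucose in BY_DEH+, with 1 CPM added. The x axis is log10(CPM + 1), filled points are the DEH library and open points the glucose library, with 1 library each and no error bar. ADH2 stands at 11865 CPM on DEH against 30.7 CPM on glucose, and FIT1 at 0.84 CPM on DEH against 279 CPM on glucose.

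Isoenzymes are proteins that catalyse one reaction in different places or conditions, and several pairs moved apart. Of 50 measured members of isoenzyme pairs, 12 were 2-fold or more higher on DEH and 13 were lower, with a median of 0.14 against 0.12 over all genes. The 3 NADP-dependent isocitrate dehydrogenases show it most fully. The cytosolic enzyme gene IDP2 had 840.2 CPM on DEH and 30.1 CPM on glucose and the peroxisomal IDP3 had 87.6 CPM on DEH and 12.6 CPM on glucose, whereas the mitochondrial IDP1 had 393 CPM on DEH and 1993 CPM on glucose. Among malate dehydrogenases, the cytosolic MDH2 had 2450.2 CPM on DEH and 263 CPM on glucose, the peroxisomal MDH3 had 515 CPM on DEH and 270.2 CPM on glucose, and the mitochondrial MDH1 had 536 CPM on DEH and 447 CPM on glucose, nearly all of it from start clusters shared with a neighbour. Of the acetyl-CoA synthetases, ACS1 had 2132 CPM on DEH and 69.9 CPM on glucose, while ACS2, used during growth on glucose, had 193 CPM on DEH and 232 CPM on glucose, also from shared clusters. ADH1, the enzyme that makes ethanol, had 7229.6 CPM on DEH and 6355 CPM on glucose, so that it was close to level while ADH2 was not. Of the aldehyde dehydrogenases, the mitochondrial ALD4 had 17516 CPM on DEH and 1562 CPM on glucose and the cytosolic ALD6 had 4899 CPM on DEH and 485 CPM on glucose, both higher on DEH. Lower on DEH were the mitochondrial ALD5 with 97.9 CPM on DEH and 256 CPM on glucose and the cytosolic ALD3 with 18.5 CPM on DEH and 63.2 CPM on glucose, while ALD2 had 70.4 CPM on DEH and 53.9 CPM on glucose.

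The enolases, pyruvate kinases and glyceraldehyde-3-phosphate dehydrogenases differed in size of change and not in direction. Both enolase genes were lower on DEH, ENO1 with 1239 CPM on DEH and 2884 CPM on glucose and ENO2 with 781 CPM on DEH and 5436 CPM on glucose. The main pyruvate kinase gene CDC19 had 1057 CPM on DEH and 4714 CPM on glucose, and PYK2, its minor form, had 104 CPM on DEH and 166 CPM on glucose. Of the glyceraldehyde-3-phosphate dehydrogenases, TDH1 had 3070.0 CPM on DEH and 10212 CPM on glucose, TDH2 had 458 CPM on DEH and 1805 CPM on glucose and TDH3 had 4407 CPM on DEH and 8488 CPM on glucose. These paralogs are similar in sequence, and reads could be split between them. The 2 kinases that make fructose 2,6-bisphosphate, the signal that favours glycolysis, went opposite ways: PFK26 had 81.0 CPM on DEH and 23.2 CPM on glucose, and PFK27 had 27.1 CPM on DEH and 111 CPM on glucose. Of the pyruvate carboxylases, PYC2 had 77.1 CPM on DEH and 225 CPM on glucose, while PYC1 had 209.6 CPM on DEH and 172 CPM on glucose. Of all 25 measured genes of glycolysis and fermentation, 1 was 2-fold or more higher and 13 were lower, with a median of -1.04.
Outside carbon metabolism, ANB1, the hypoxic form of translation factor eIF5A, had 2.80 CPM on DEH and 18.4 CPM on glucose, and COX5B, the hypoxic form of a cytochrome oxidase subunit, had 49.7 CPM on DEH and 112 CPM on glucose, all of it from shared clusters. CYC1 and CYC7, the cytochrome c pair, were low in both libraries, with CYC1 at 31.8 CPM on DEH and 32.6 CPM on glucose and CYC7 at 10.7 CPM on DEH and 16.8 CPM on glucose.

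Genes of the methylcitrate cycle, the mitochondrial route that burns propionate, were higher on DEH. Of 5 measured genes in the list, which includes ACS1 and CIT2, 4 were 2-fold or more higher and none lower. ICL2, the methylisocitrate lyase, had 313 CPM on DEH and 0.85 CPM on glucose. CIT3, the methylcitrate synthase, had 624 CPM on DEH and 56.8 CPM on glucose, and PDH1, a methylcitrate dehydratase, had 372 CPM on DEH and 98.5 CPM on glucose. CIT2, the peroxisomal citrate synthase, had 1768 CPM on DEH and 1188 CPM on glucose. The carnitine shuttle, which moves acetyl groups between compartments, was mixed. Its carnitine acetyltransferase CAT2 had 248 CPM on DEH and 35.3 CPM on glucose and its mitochondrial carrier CRC1 had 366 CPM on DEH and 117 CPM on glucose. YAT1 and YAT2, the other acetyltransferases, were level, with YAT1 at 155 CPM on DEH and 153 CPM on glucose and YAT2 at 286 CPM on DEH and 297 CPM on glucose. The plasma membrane permease AGP2 had 183 CPM on DEH and 109 CPM on glucose, and the choline permease HNM1, which also takes up carnitine, had 152 CPM on DEH and 220.1 CPM on glucose.

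Peroxisomes burn fatty acids in yeast, and 18 of 56 measured peroxisomal and β-oxidation genes were 2-fold or more higher on DEH, 1 was lower, and the median was 0.55. The enzymes led. FOX2, the bifunctional enzyme, had 593 CPM on DEH and 9.23 CPM on glucose, the thiolase POT1 had 639 CPM on DEH and 13.7 CPM on glucose, and the dienoyl-CoA reductase SPS19 had 824 CPM on DEH and 33.3 CPM on glucose. In BY_DEH++ the count was 14 higher and 2 lower, with a median of -0.05, and POT1 had 55.4 CPM on DEH and 7.99 CPM on glucose there. Carriers and exporters of organic acids and ammonium were higher in 8 of 13 and lower in 2, with a median of 1.44. The lactate and pyruvate permease JEN1 had 1783 CPM on DEH and 88.3 CPM on glucose, and the dicarboxylate carrier DIC1 had 503 CPM on DEH and 104 CPM on glucose. ODC2, a carrier of 2-oxoglutarate, went the other way with 53.4 CPM on DEH and 550.2 CPM on glucose. Of 16 genes of gluconeogenesis and the glyoxylate cycle, 11 were 2-fold or more higher and 2 lower, with a median of 2.82.

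The promoters of these genes were read for the elements that bind their known activators. The window was 500 bases upstream of the gene's main start cluster, on both strands, and 4868 genes had one. The carbon source response element (CSRE) of Cat8 and Sip4 was in 9 of 16 gluconeogenesis promoters, and in all 9 cases the gene was among the 11 that were 2-fold or more higher. Over all genes 8.63% of windows held it, against 23.4% of windows of genes 4-fold or more higher on DEH and 7.41% of those 4-fold or more lower. With a window of 300 bases it was found in 6 of the 16. The Adr1 element TTGGAG was in 13 of 56 peroxisomal promoters, in 7 of the 18 higher genes and in 21.0% of all. A match is a description of letters and not of binding. The FBP1 and CTA1 stretches below are shown because these are the highest genes of their lists. Each is printed 5′ to 3′ on the strand of the gene, minus in both cases, from genome build R64 as held by RefSeq. FBP1 lies at chrXII:875246-875336 and CTA1 at chrIV:969799-969884, and capitals mark the carbon source response element in FBP1, here on the opposite strand, and the Adr1 element in CTA1. The element in FBP1 lies 418 bases upstream of a start cluster with 881 CPM on DEH and 3.18 CPM on glucose. The one in CTA1 lies 73 bases upstream of a cluster with 871 CPM on DEH and 4.88 CPM on glucose.
FBP1: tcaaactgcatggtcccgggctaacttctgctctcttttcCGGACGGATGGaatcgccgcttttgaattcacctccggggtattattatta
CTA1: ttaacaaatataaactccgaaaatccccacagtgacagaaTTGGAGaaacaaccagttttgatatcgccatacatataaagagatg

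The regulators themselves were mostly level. Of 33 measured regulators of non-fermentable carbon use, 6 (18.2%) were 2-fold or more higher, 4 (12.1%) were lower and the median was 0.21. Over all genes 10.6% were higher and 9.90% lower. SIP4, an activator of gluconeogenic genes, had 174 CPM on DEH and 6.89 CPM on glucose. GSM1, a candidate regulator of energy metabolism, had 103 CPM on DEH and 24.5 CPM on glucose, and XBP1, a repressor that acts in starved cells, had 322 CPM on DEH and 79.5 CPM on glucose. Repressors used on glucose were lower: MIG2 had 16.8 CPM on DEH and 129 CPM on glucose, and MIG3 had 9.71 CPM on DEH and 28.1 CPM on glucose. STD1, part of the sensing of glucose, was also lower, with 5.04 CPM on DEH and 26.9 CPM on glucose. HAP4, the activator subunit for respiration genes, had 95.4 CPM on DEH and 146 CPM on glucose. Of 46 measured genes of the respiratory chain, 8 (17.4%) were 2-fold or more higher and 2 (4.35%) lower, with a median of 0.62. The largest was SDH2, the iron-sulfur subunit of succinate dehydrogenase, with 656 CPM on DEH and 125 CPM on glucose.

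Many genes of cell division and of the wall between mother and daughter were lower on DEH in this strain. Of 38 measured cyclin and cell cycle genes, 15 were 2-fold or more lower on DEH, 4 were higher and the median was -0.30. The mitotic genes led. The B-type cyclin CLB1 had 2.43 CPM on DEH and 68.0 CPM on glucose, and CLB2 had 4.39 CPM on DEH and 72.9 CPM on glucose. SWI5, the factor that starts transcription as mitosis ends, had 4.39 CPM on DEH and 45.2 CPM on glucose. CDC20, which triggers anaphase, had 4.58 CPM on DEH and 24.1 CPM on glucose, and the polo kinase gene CDC5 had 16.8 CPM on DEH and 73.4 CPM on glucose. The G1 cyclins CLN1 and CLN2 were lower as well, with CLN1 at 16.1 CPM on DEH and 53.4 CPM on glucose and CLN2 at 10.1 CPM on DEH and 53.9 CPM on glucose. CLN3, the upstream G1 cyclin, was level at 267 CPM on DEH and 259 CPM on glucose, as was the kinase gene CDC28 at 34.6 CPM on DEH and 29.3 CPM on glucose. When only genes with 10 CPM or more in both libraries were kept, the median of this list was 0.14, as CLB1, CLB2, SWI5 and CDC20, each under 10 CPM on DEH, were then left out. In mixed cultures, fewer cells in a stage and less RNA per cell cannot be told apart.

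Of 14 measured histone genes, 5 were 2-fold or more lower on DEH and 1 was higher. The lower ones include HTA2, an H2A gene, with 24.2 CPM on DEH and 557 CPM on glucose, and its divergent partner HTB2, an H2B gene, with 87.2 CPM on DEH and 791 CPM on glucose. Both copies of histone H4 were lower, HHF2 with 116 CPM on DEH and 460.0 CPM on glucose and HHF1 with 269.9 CPM on DEH and 630.5 CPM on glucose. The other H2A copy, HTA1, had 2999 CPM on DEH and 3514 CPM on glucose, so that the copies differed. CSE4, the centromeric H3 variant, was the one that was higher, with 84.3 CPM on DEH and 41.0 CPM on glucose. No histone gene reached 2-fold in either direction in BY_DEH++, where HTB2 had 569 CPM on DEH and 782 CPM on glucose.

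The cell wall list was the broadest of these. Of 50 measured genes, 28 were 2-fold or more lower on DEH and 6 were higher, with a median of -1.25, against 9.90% lower and 10.6% higher among all genes. FIT1 is counted in this list and in that of iron uptake. Daughter cells make enzymes that digest the septum from their own side. DSE2, a daughter-specific glucanase-like protein, had 36.0 CPM on DEH and 705 CPM on glucose, DSE1 had 59.7 CPM on DEH and 356 CPM on glucose, and DSE4, an endoglucanase, had 78.0 CPM on DEH and 195 CPM on glucose. EGT2, also needed for timely separation, had 42.7 CPM on DEH and 163 CPM on glucose, the glucanase gene SCW11 had 43.5 CPM on DEH and 222 CPM on glucose, and the chitinase gene CTS1 had 251 CPM on DEH and 701 CPM on glucose. In BY_DEH++ DSE4 had 487 CPM on DEH and 362 CPM on glucose, EGT2 had 439 CPM on DEH and 287 CPM on glucose and SCW11 had 304 CPM on DEH and 277 CPM on glucose, so that these 3 were not lower on DEH there. Chitin synthase 2, encoded by CHS2 and needed for the primary septum, had 13.2 CPM on DEH and 89.7 CPM on glucose in BY_DEH+, and 69.4 CPM on DEH and 80.9 CPM on glucose in BY_DEH++. BUD4, a bud neck protein, was listed at 0 on DEH in BY_DEH+ and had 24.2 CPM on glucose, while BY_DEH++ had 22.0 CPM on DEH and 26.1 CPM on glucose. Its antisense clusters went the other way and are given below.
General wall proteins were lower too. CCW12, an abundant mannoprotein of new wall, had 1819.5 CPM on DEH and 8492 CPM on glucose, CIS3 had 123 CPM on DEH and 1138 CPM on glucose, and the SUN family gene SUN4 had 27.6 CPM on DEH and 214 CPM on glucose. FLO5, a flocculin, counts here with 439.7 CPM on DEH and 3681 CPM on glucose, but 96.2% of its signal lay on the other strand, and without that its log2 ratio was 0.02. Some wall genes went up instead. SED1, a wall protein of stationary phase, had 16117 CPM on DEH and 7584 CPM on glucose, CWP1 had 209.5 CPM on DEH and 40.3 CPM on glucose, and DFG5, linked to anchoring of wall proteins, had 489.9 CPM on DEH and 115 CPM on glucose. PIR3 had 1569 CPM on DEH and 383 CPM on glucose in BY_DEH+, against 72.8 CPM on DEH and 146 CPM on glucose in BY_DEH++.

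Many genes of stress and stationary phase were higher on DEH in this strain. Of 26 measured hydrophilins and stationary-phase genes, 12 were higher by 2-fold or more and 5 were lower, with a median of 0.75. In BY_DEH++ 1 was higher and 7 lower, with a median of -0.14. GRE1, a hydrophilin of dehydration stress, had 2863 CPM on DEH and 124 CPM on glucose in BY_DEH+, and 93.9 CPM on DEH and 108 CPM on glucose in BY_DEH++. SPG5, a proteasome regulator of stationary phase, had 2922 CPM on DEH and 374 CPM on glucose in BY_DEH+, and 489 CPM on DEH and 383 CPM on glucose in BY_DEH++. DDR2, a multistress gene, had 3154 CPM on DEH and 614 CPM on glucose in BY_DEH+, and 334 CPM on DEH and 364 CPM on glucose in BY_DEH++. The small membrane-protecting HSP12 had 5172 CPM on DEH and 1703 CPM on glucose in BY_DEH+, and 392 CPM on DEH and 330.5 CPM on glucose in BY_DEH++. In all 4 genes the BY_DEH+ DEH library was the highest of the 4 libraries. HSP33, a relative of a stress chaperone, had 27.1 CPM on DEH and 2.12 CPM on glucose. Lower on DEH were YGP1, a secreted glycoprotein of nutrient limitation, with 79.8 CPM on DEH and 356 CPM on glucose, and SNO1, which makes vitamin B6, with 54.2 CPM on DEH and 207 CPM on glucose.

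The heat shock genes did not follow as a group, with 2 of 36 measured genes 2-fold or more higher, 3 lower and a median of -0.12. The cytosolic Hsp70 genes differed among themselves: SSA3 had 359 CPM on DEH and 57.3 CPM on glucose, SSA4 had 50.3 CPM on DEH and 262 CPM on glucose, and SSA2 had 224 CPM on DEH and 859 CPM on glucose. These are close paralogs. SSA3 was low in BY_DEH++, with 5.98 CPM on DEH and 3.09 CPM on glucose. Of 42 autophagy and vacuolar genes, 8 were higher and 1 lower in BY_DEH+, with a median of 0.39, against 1 higher and 10 lower in BY_DEH++. ATG39, the receptor that delivers nuclear envelope to the vacuole, had 198 CPM on DEH and 28.9 CPM on glucose, and ATG8, the core membrane tag, had 438 CPM on DEH and 153 CPM on glucose. APE1, a vacuolar aminopeptidase, was the lower one with 139 CPM on DEH and 541 CPM on glucose. Of 41 proteasome genes 5 (12.2%) were higher, close to the 10.6% of all genes, and none was lower. RPN4, the regulator of proteasome genes, had 416 CPM on DEH and 133 CPM on glucose. The Rpn4 element GGTGGCAAA was in 24 of these 41 promoters, in none of the 5 higher genes and in 1.87% of all.

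Ribosomal protein genes were higher on DEH in most cases, and their median was higher still in BY_DEH++. Of 81 measured large-subunit genes 58 were 2-fold or more higher and none lower, with a median of 1.25, and in BY_DEH++ 76 were higher with a median of 2.29. Among 56 small-subunit genes 40 were higher and none lower, with a median of 1.30. RPL7B had 178 CPM on DEH and 19.7 CPM on glucose, and RPS22B had 302 CPM on DEH and 39.1 CPM on glucose. These are members of duplicated pairs, so part of a paralog's reads could be counted under its twin. Of 84 factors that build ribosomes 10 (11.9%) were higher, close to the 10.6% of all genes, none was lower, and the median was 0.46. In BY_DEH++ 39 were higher. RLP7, a processing factor for large-subunit RNA, was the largest with 283 CPM on DEH and 94.1 CPM on glucose. The PAC element GATGAG, known from such promoters, was in 67 of the 84 windows, in 7 of the 10 higher genes and in 28.6% of all. RLP7 is shown as an example, at chrXIV:627224-627282 on the minus strand of R64, with the 2 overlapping matches in capitals, 14 and 9 bases upstream of its cluster.
RLP7: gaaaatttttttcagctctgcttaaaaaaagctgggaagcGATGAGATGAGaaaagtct
The 71 mitochondrial ribosomal protein genes had 1 higher and none lower, with a median of 0.31.

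Many genes of amino acid synthesis were lower. Of 30 measured arginine, lysine and leucine genes, none was 2-fold or more higher and 15 were lower, with a median of -1.06. ARG4, the last enzyme of arginine synthesis, had 138 CPM on DEH and 1175 CPM on glucose, and ARG1, the step before it, had 350.4 CPM on DEH and 2439 CPM on glucose. Among 35 genes for other amino acids 21 were lower, none was higher and the median was -1.19. HIS4, a multi-step enzyme of histidine synthesis, had 71.4 CPM on DEH and 555 CPM on glucose, and HIS1, the first step, had 102 CPM on DEH and 726 CPM on glucose. The Gcn4 element TGACTC, whose letters also serve for Bas1, was in 22 of these 35 windows, in 15 of the 21 lower genes and in 14.5% of all. Uptake did not follow synthesis. Of 27 amino acid permeases 5 (18.5%) were higher and 2 (7.41%) lower, against 10.6% higher and 9.90% lower over all genes. The arginine permease relative ALP1 had 219 CPM on DEH and 12.6 CPM on glucose. The proline permease PUT4 had 78.7 CPM on DEH and 6.58 CPM on glucose. GCV1, a subunit of the glycine cleavage complex, had 29.6 CPM on DEH and 262 CPM on glucose. Of 32 genes in the purine list, which also holds GCV1 and pyrimidine genes such as URA2 and URA10, 10 were lower and 1 was higher. The higher one was FUR4, the uracil permease, with 27.7 CPM on DEH and 1.59 CPM on glucose. Of the ammonium permeases, MEP3 had 4.39 CPM on DEH and 49.8 CPM on glucose, and MEP2 had 15.6 CPM on DEH and 68.6 CPM on glucose. GDH2, which releases ammonium from glutamate, had 718 CPM on DEH and 185 CPM on glucose.

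Genes of iron uptake were among the lowest. Of 18 measured genes of siderophore and ferrous iron uptake, 10 were 2-fold or more lower and none higher, with a median of -2.01. FIT1, a mannoprotein that holds siderophores at the wall, had 0.84 CPM on DEH and 279 CPM on glucose. FIT3, its relative and the highest gene of the glucose library, had 2502 CPM on DEH and 26028 CPM on glucose. FIT2 and the reductase gene FRE3 take nearly all of their signal from a cluster listed under both, so that 223 CPM on DEH and 11278 CPM on glucose, given under FRE3, cannot be split between them. LSO1, a small protein of iron shortage, was listed at 0 on DEH and had 24.8 CPM on glucose. The Aft1 element GCACCC was in 10 of the 18 windows, in 8 of the 10 lower genes and in 8.53% of all. FIT1 is shown because it had the lowest log2 ratio of all genes with 1 CPM added on both sides. HXT3, COS1 and TIR1 were listed at 0 on DEH, so this order rests on the added 1 CPM. The stretch is chrIV:1505037-1505223 on the minus strand of R64, and capitals mark its 3 elements, on either strand, at 162, 150 and 61 bases upstream of the start cluster.
FIT1: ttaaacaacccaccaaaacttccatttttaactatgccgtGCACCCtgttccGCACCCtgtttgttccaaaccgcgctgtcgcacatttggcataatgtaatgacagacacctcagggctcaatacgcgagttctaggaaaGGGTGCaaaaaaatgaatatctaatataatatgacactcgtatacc
Zinc genes moved likewise in part, with 6 of 20 lower and 1 higher. The metal transporter FET4, counted in this list and in that of iron uptake, had 24.0 CPM on DEH and 218 CPM on glucose. The vacuolar zinc exporter ZRT3 had 394 CPM on DEH and 1458 CPM on glucose. CTR1, the copper transporter, went the other way with 92.8 CPM on DEH and 17.0 CPM on glucose. It was the only 1 of 11 measured copper genes that was 2-fold or more higher, while 3 were lower and the median was -0.14.

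Of 26 phosphate genes 13 were lower and 1 higher, with a median of -0.87. The acid phosphatase PHO5 had 18.9 CPM on DEH and 332 CPM on glucose, and PHM6 had 21.4 CPM on DEH and 266 CPM on glucose. The Pho4 element CACGTG was in 15 of these 26 windows, in 8 of the 13 lower genes and in 7.76% of all. The list also holds CTF19, a kinetochore gene, which is counted among the 13 and the 8. In the list of drug efflux genes under Pdr1 and Pdr3, which holds exporters, regulators and GRE2, 2 of 24 (8.33%) were higher and 6 (25.0%) lower. Over all genes 10.6% were higher and 9.90% lower. The polyamine exporter TPO1 had 13.3 CPM on DEH and 111 CPM on glucose, and the weak acid exporter PDR12 had 15.1 CPM on DEH and 100.1 CPM on glucose. The higher pair was PDR10, an exporter of the same family as PDR12, with 161 CPM on DEH and 42.8 CPM on glucose, and the methylglyoxal reductase GRE2 with 838 CPM on DEH and 90.7 CPM on glucose. Among other reductases, OYE3, an old yellow enzyme, had 257 CPM on DEH and 20.8 CPM on glucose. ARI1, a carbonyl reductase, was lower with 3.08 CPM on DEH and 72.0 CPM on glucose.

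The mating response was lower in 10 of 43 measured genes and higher in 1, with a median of -0.54. SST2, which turns the pheromone signal off and is itself induced by it, had 2.43 CPM on DEH and 120.2 CPM on glucose. AGA1, the anchor of agglutinin, had 58.9 CPM on DEH and 409 CPM on glucose, and PRM1, which acts in membrane fusion, had 1.21 CPM on DEH and 39.7 CPM on glucose. The Ste12 element TGAAACA was in 21 of the 43 windows, in 7 of the 10 lower genes and in 11.8% of all. SST2 is shown as the lowest of the list, at chrXII:1041565-1041651 on the minus strand of R64, with the element in capitals 47 bases upstream of its cluster of 2.43 CPM on DEH and 120.2 CPM on glucose.
SST2: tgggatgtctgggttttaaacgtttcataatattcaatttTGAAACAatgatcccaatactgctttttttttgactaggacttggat
In the hexose transporter list 6 of 15 were lower and 3 higher, with a median of -0.51. HXT4 had 1.40 CPM on DEH and 205 CPM on glucose, and HXT5, a transporter of slow growth, had 635 CPM on DEH and 93.8 CPM on glucose. The median of this list was 0.15 when 10 CPM was asked of both libraries.

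**Figure D2:**
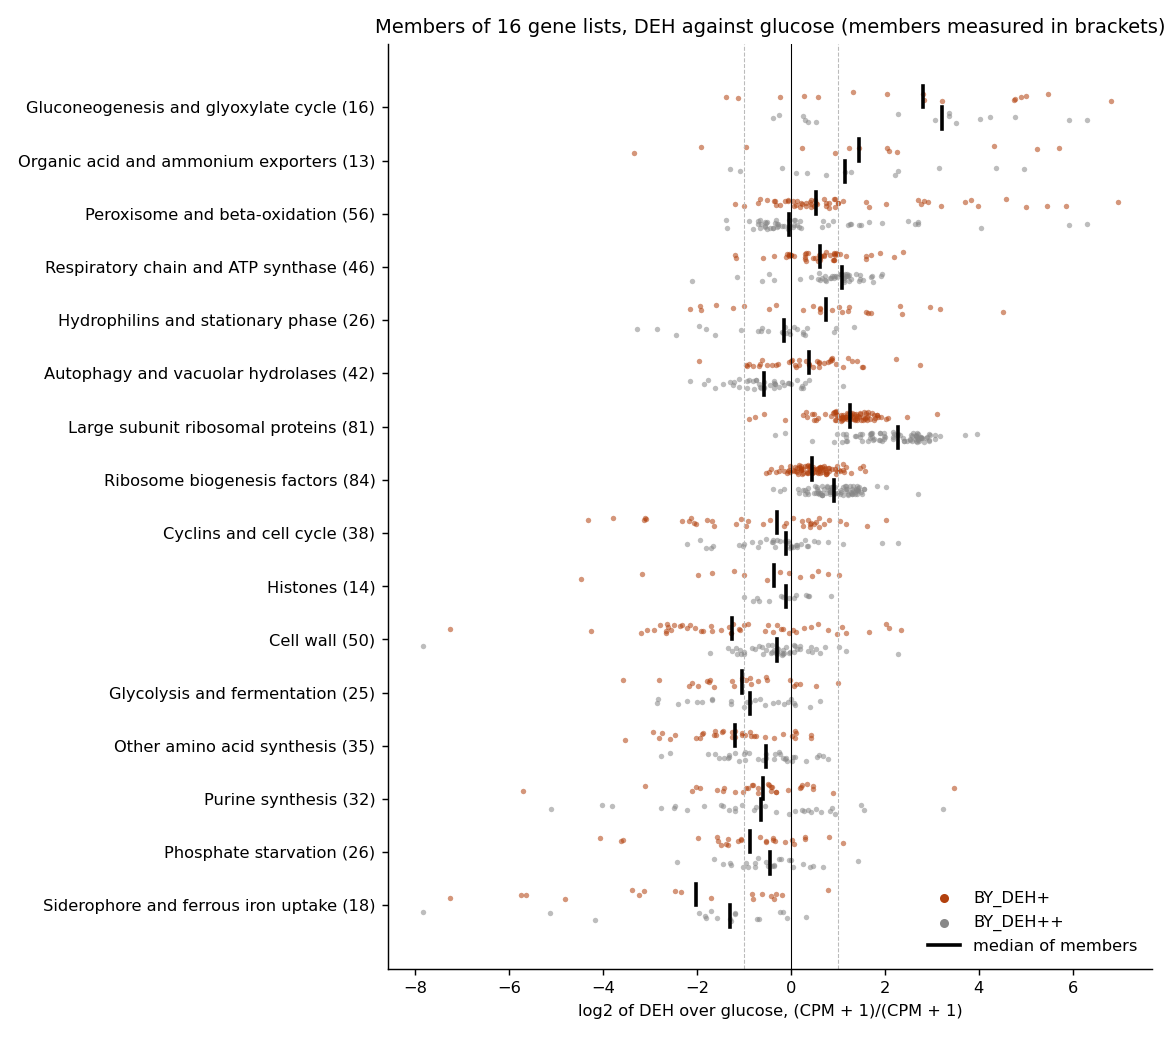
Log2 of DEH over glucose for every measured member of 16 gene lists, BY_DEH+ above and BY_DEH++ below in each row. Points are genes, black bars are medians over members, dashed lines mark 2-fold, and the number of members stands in brackets. The cell wall median is -1.25 in BY_DEH+ and -0.29 in BY_DEH++, and that of large-subunit ribosomal proteins is 1.25 in BY_DEH+ and 2.29 in BY_DEH++.

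CAGE also shows where transcripts start. In 1357 genes with at least 2 start clusters of 10 CPM or more and enough signal in both libraries, 295 (21.7%) moved 20 percentage points or more of their signal into or out of their main cluster. The main cluster's share was higher on DEH in 159 of them and lower in 136. In 250 of the 295 both clusters compared lay on the strand of the gene, and in 45 at least 1 lay on the other strand. In the 250, the cluster favoured on DEH was the more upstream one in 120 genes and the more downstream one in 130. Both clusters lay upstream of the coding start in 122 of the 250. In 49 just 1 of them lay inside the coding sequence, and in 1 gene both did. The others had a cluster past the end of the coding sequence, so not every shift is between starts of the gene itself. Of 290 genes that could be read in BY_DEH++, 144 moved 20 points or more the same way and 1 the opposite way. Of all 1349 genes of the set that could be read there, 248 (18.4%) moved 20 points or more in either direction. Positions below are those of the 5′ edge of a cluster, in bases from the first base of the coding sequence, with a minus sign for upstream. Shares carry 95% Wilson intervals for counting error.

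The largest shift was in FAT3, linked to fatty acid uptake. Its cluster at -81 held 97.6% of the gene's signal on DEH (interval 97.1 to 98.0) and 2.28% on glucose (interval 0.98 to 5.23). That cluster had 375 CPM on DEH and 0.53 CPM on glucose, while a cluster inside the coding sequence at +348 had 1.59 CPM on DEH and 19.5 CPM on glucose. In SFC1, the mitochondrial succinate and fumarate carrier, the cluster at -196 had 524 CPM on DEH and 7.43 CPM on glucose. A cluster far downstream at +1254 had 31.8 CPM on DEH and 116 CPM on glucose. In QDR1, a multidrug transporter, the cluster at -196 had 17.9 CPM on DEH and was listed at 0 on glucose, and an internal one at +775 was listed at 0 on DEH and had 20.7 CPM on glucose. In these 3 genes the DEH library used the start before the coding sequence. Most of the glucose signal was internal in FAT3 and QDR1, and in SFC1 the cluster at +1254 was the larger one on glucose.

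Other genes changed between upstream starts. GDH3, a glutamate dehydrogenase, had 292 CPM on DEH and 8.06 CPM on glucose at -465, but 22.1 CPM on DEH and 193 CPM on glucose at -50. The gene total, 315 CPM on DEH and 209 CPM on glucose, hides this exchange between clusters. DCI1, a peroxisomal enoyl-CoA isomerase, had 234 CPM on DEH and 1.80 CPM on glucose at -62, and 21.1 CPM on DEH and 25.0 CPM on glucose at -541. SHH4, a relative of a succinate dehydrogenase subunit, had 34.4 CPM on DEH and 1.17 CPM on glucose at -160, against 4.67 CPM on DEH and 63.3 CPM on glucose at -377. The 2 clusters of SHH4, and likewise those of GDH3, have bounds that overlap, so their positions do not give the distance between starts. In STE2 the cluster at -89 was listed at 0 on DEH and had 65.2 CPM on glucose, so that on DEH the remaining signal lay at -525, far upstream.
Some shifts rest on clusters listed under more than one gene. MIC26, part of the complex that shapes mitochondrial cristae, had 399.8 CPM on DEH at -880 and 0 listed there on glucose, against 98.0 CPM on DEH and 61.0 CPM on glucose at -79. All its clusters are shared. The same holds of SPC24, a kinetochore protein whose far cluster is also listed under SHH3, with 188 CPM on DEH and 4.88 CPM on glucose, and of the far cluster of ECM32, a helicase, with 1.96 CPM on DEH and 239 CPM on glucose.

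**Figure D3:**
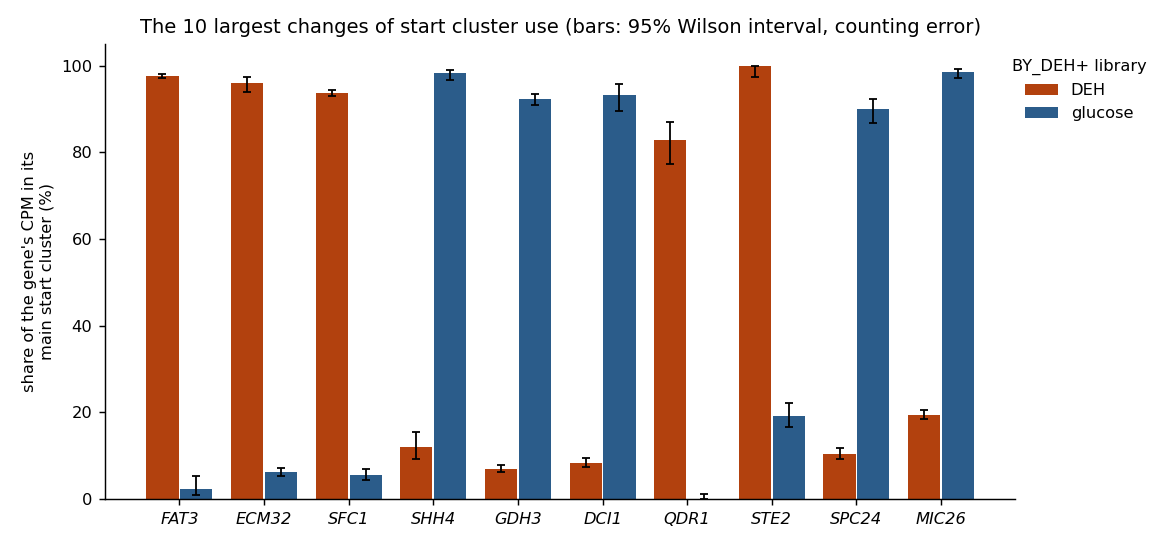
Share of each gene's signal in its main start cluster for the 10 genes with the largest shift, in percent, with DEH bars left of glucose bars. Error bars are 95% Wilson intervals, which cover counting error only. FAT3 stands at 97.6% on DEH and 2.28% on glucose, and GDH3 at 6.99% on DEH and 92.3% on glucose.

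Transcripts that run against a gene could be read for 326 genes, in clusters on the opposite strand inside the coding sequence or up to 300 bases past its end, of 10 CPM or more in all in either library. Clusters from 500 bases before to 100 after the coding start of a gene on their own strand were left out. A cluster inside a neighbouring gene and on its strand could still count, as the one in ACS1 did for PEX22. Antisense signal was 4-fold or more lower on DEH for 84 of the 326 genes (25.8%) and higher for 36 (11.0%), with a median of -0.71. In BY_DEH++ 71 of the 84 were 4-fold or more lower as well, against 110 of all 326. Among the 25 of these genes that were themselves 4-fold or more higher on DEH, 17 had antisense signal 4-fold or more lower and none higher, with a median of -2.70. Of the 25, 24 reached the 10 CPM limit on glucose and 5 on DEH, so the entry limit itself favours this direction. With a pseudocount of 10 CPM in place of 1, the count of 17 became 3.

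SIP4, the activator described above, showed the largest change, with antisense signal listed at 0 on DEH and at 113 CPM on glucose. ADH2 had antisense signal of 1.87 CPM on DEH and 73.5 CPM on glucose, the mirror of its own change. JEN1 had none listed on DEH and 29.7 CPM on glucose, CTA1 none listed on DEH and 25.4 CPM on glucose, and FOX2 none listed on DEH and 22.0 CPM on glucose. For MLS1, malate synthase, none was listed on DEH, against 17.4 CPM on glucose. HPF1, a wall mannoprotein 4-fold or more higher on DEH, had antisense signal of 19.1 CPM on DEH and 118 CPM on glucose. In BY_DEH++ the antisense signal of SIP4 was 1.91 CPM on DEH and 85.3 CPM on glucose, and that of ADH2 was 4.83 CPM on DEH and 58.4 CPM on glucose.
The start regions of the SIP4 and ADH2 antisense transcripts are shown because they carry these values. Both are from R64, printed 5′ to 3′ on the strand of the antisense RNA, with the deposited cluster in capitals and 40 bases on each side in lower case. The SIP4 cluster lies inside the coding sequence, printed as chrX:267989-268188 on the minus strand. That of ADH2 begins 321 bases past the end of the coding sequence and reaches into the 300-base window, as clusters that overlap the window were counted. It is printed as chrXIII:872930-873102 on the plus strand.
SIP4 antisense: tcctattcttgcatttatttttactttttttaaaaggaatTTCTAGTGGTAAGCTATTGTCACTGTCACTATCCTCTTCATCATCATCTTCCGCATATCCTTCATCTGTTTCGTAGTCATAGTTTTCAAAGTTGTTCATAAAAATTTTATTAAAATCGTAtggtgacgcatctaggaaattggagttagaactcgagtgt
ADH2 antisense: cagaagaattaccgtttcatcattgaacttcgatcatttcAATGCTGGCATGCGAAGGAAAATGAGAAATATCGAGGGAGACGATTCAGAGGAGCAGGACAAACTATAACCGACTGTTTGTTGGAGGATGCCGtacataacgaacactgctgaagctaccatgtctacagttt
Among 29 genes 4-fold or more lower on DEH, antisense signal was 4-fold or more higher in 9 and lower in 5, with a median of 0.66. Of the 29, 23 reached the 10 CPM limit on DEH and 16 on glucose, so here the entry limit favours the higher direction. The 5 genes named next are each under it on glucose. HIS1 had antisense signal of 59.6 CPM on DEH and 2.12 CPM on glucose. WSC2, a wall stress sensor, had 24.2 CPM of it on DEH and 1.59 CPM on glucose, and MIG2 had 26.6 CPM of it on DEH and 1.91 CPM on glucose. RSF2 had 18.0 CPM of antisense signal on DEH and none listed on glucose, and BUD4 had 13.4 CPM of it on DEH and none listed on glucose.

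**Figure D4:**
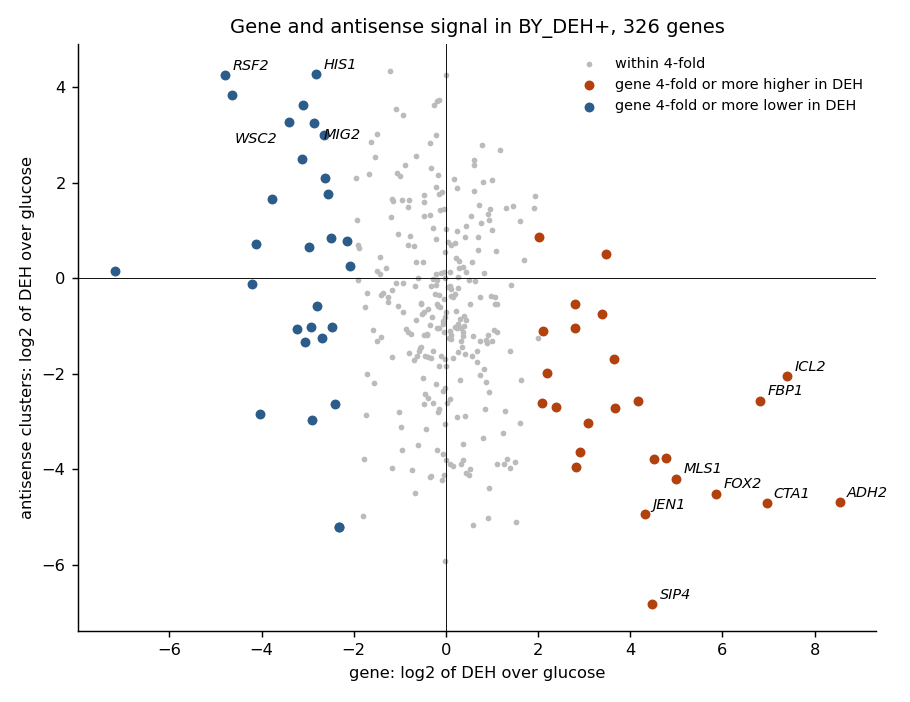
Antisense signal (y axis) against the gene's own signal (x axis) in BY_DEH+, each as log2 of DEH over glucose with 1 CPM added, for 326 genes. Coloured points are genes 4-fold or more higher or lower on DEH. ADH2, CTA1, FOX2, JEN1 and SIP4 lie low on the right, and HIS1 and RSF2 high on the left.

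Clusters that the deposited table gives to no gene made up 6.20% of the DEH library and 5.35% of the glucose library. Of 790 such clusters with 10 CPM or more in either library, 84 (10.6%) were 4-fold or more higher on DEH and 188 (23.8%) were lower, with a median of -0.51. They lay between genes in 424 cases, antisense inside a gene in 243, and inside a gene on its strand in 114. The 6 highest include a cluster antisense to HXT11, a hexose transporter gene, with 122 CPM on DEH and none listed on glucose or in either BY_DEH++ library. A cluster antisense to SPO1, a meiotic gene, had 79.2 CPM on DEH and none listed on glucose. A cluster between genes at chrIV:544757-544886 on the plus strand had 134 CPM on DEH and 1.49 CPM on glucose. Others lay inside LSR1, the U2 spliceosomal RNA, with 49.2 CPM on DEH and none listed on glucose, within the bounds of a far larger cluster, and inside PCA1, a cadmium exporter, with 24.9 CPM on DEH and none listed on glucose. The lowest lay at chrXIII:362092-362221 on the plus strand, antisense to the Ty element genes YMR045C and YMR046C, with none listed on DEH and 324 CPM on glucose. Ty elements are repeated in the genome, and in BY_DEH++ this cluster was listed at 0 on DEH and at 0.60 CPM on glucose. A cluster antisense to COG1, a Golgi tethering factor, was listed at 0 on DEH and had 94.7 CPM on glucose. Another, antisense to CAK1, a kinase that activates cyclin-dependent kinases, was listed at 0 on DEH and had 55.4 CPM on glucose.
Of the 84 higher clusters 25 were 4-fold or more higher in BY_DEH++ too, against 29 of all 790. Of the 188 lower ones 121 were 4-fold or more lower there, against 177 of all 790. The most abundant clusters of this kind belong to noncoding RNAs. The largest, in the U2 gene LSR1, had 16243 CPM on DEH and 6327 CPM on glucose, and that of U1, encoded by SNR19, had 11667 CPM on DEH and 4502 CPM on glucose.

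By level, the DEH library was led by ALD4 with 17516 CPM, SED1 with 16117 CPM and ADH2 with 11865 CPM. In the glucose library FIT3 with 26028 CPM and PGK1, the phosphoglycerate kinase, with 12537 CPM led among genes with clusters of their own. HSP150, a secreted wall protein, was among the highest 10 of both, with 9298 CPM on DEH and 12149.8 CPM on glucose, as was SPO24, a small sporulation protein, with 8359 CPM on DEH and 9786 CPM on glucose. The next places of the glucose library after FIT3, AGE1 and YDR524W-A, rest on 1 shared cluster, with 2316 CPM on DEH and 12864 CPM on glucose under AGE1. CAGE counts depend on transcript number and not on length, so levels can be compared between genes.

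The BY_DEH++ pair, which shares no library with the BY_DEH+ pair, gives the same comparison in a second strain. Of the 112 genes 4-fold or more higher in BY_DEH+, 54 were 4-fold or more higher in BY_DEH++, 34 were within 2-fold there and 2 were 2-fold or more lower. Over all 4877 genes, BY_DEH++ had 157 that were higher on DEH by 4-fold or more and 108 that were lower. Of the 165 lower genes 57 were 4-fold or more lower in BY_DEH++, 50 were within 2-fold and 3 were 2-fold or more higher. ADH2 had 7979 CPM on DEH and 22.8 CPM on glucose in BY_DEH++. Those within 2-fold in BY_DEH++ include GRE1, DDR2 and SPG5 among the higher genes and SCW11, SUN4 and HTB2 among the lower ones. PMA2, a minor proton pump, had 480.0 CPM on DEH and 80.5 CPM on glucose in BY_DEH+, and 78.2 CPM on DEH and 71.4 CPM on glucose in BY_DEH++. TKL2, a minor transketolase, had 131 CPM on DEH and 30.1 CPM on glucose in BY_DEH+, and 5.13 CPM on DEH and 5.95 CPM on glucose in BY_DEH++, while the main one, TKL1, had 136 CPM on DEH and 568 CPM on glucose in BY_DEH+, and 813 CPM on DEH and 967 CPM on glucose in BY_DEH++. IDH2, a subunit of the mitochondrial isocitrate dehydrogenase, had 116 CPM on DEH and 494 CPM on glucose in BY_DEH+, and 841 CPM on DEH and 552 CPM on glucose in BY_DEH++. The difference between the strains could not be tested with 1 library in each group, and culture time and starting density also differed between the DEH cultures.

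**Figure D5:**
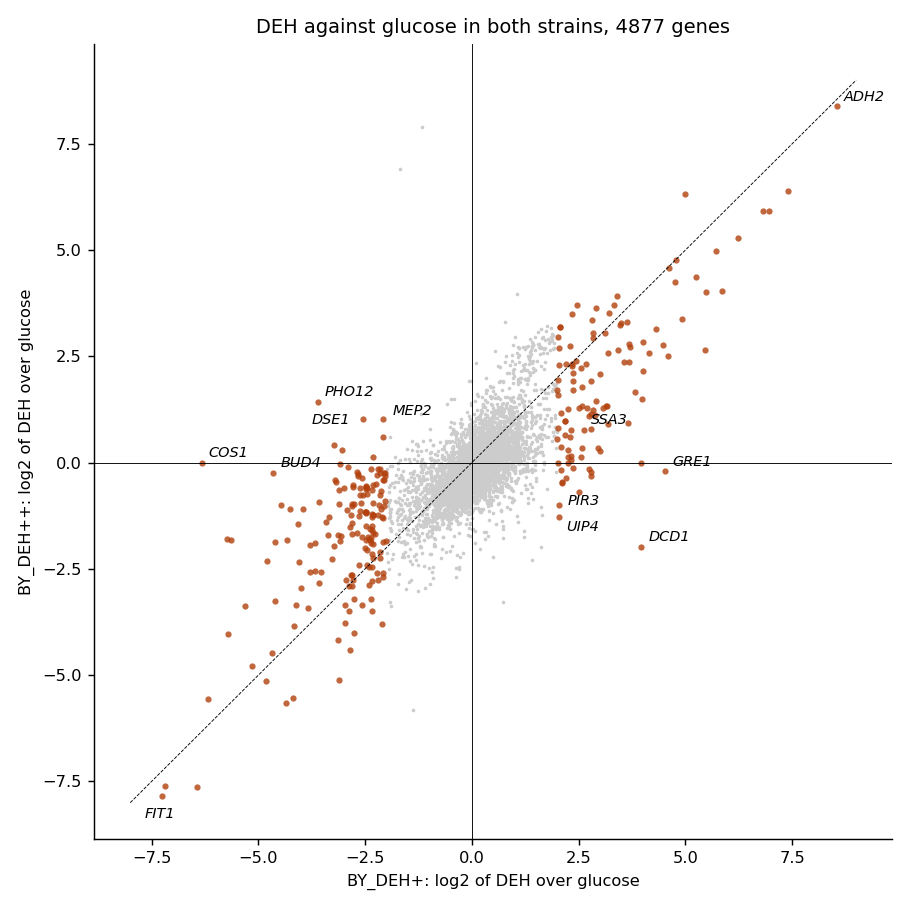
Log2 of DEH over glucose in BY_DEH+ (x axis) and in BY_DEH++ (y axis) for 4877 genes, with genes 4-fold or more apart in BY_DEH+ in colour and a dashed line where both strains are equal. ADH2 lies far up on the line, GRE1 lies at 4.52 in BY_DEH+ and -0.20 in BY_DEH++, and DCD1 lies at 3.97 in BY_DEH+ and -1.98 in BY_DEH++.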

How the data were processed

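RNA was extracted with acid phenol-chloroform and turned into CAGE libraries with DNAFORM's cap-trapping kit for a NextSeq500, per the labels' protocols. Per the submitters' processing notes, BWA, HISAT2 and mm9 were involved, each without a stated version or role. Since mm9 belongs to the mouse and the deposited clusters are named by sequences of yeast R64, R64 was used here. The deposited values are normalised signal per start cluster, scaled by the authors to CPM. A cluster listed under several genes is repeated, so CPM holds over distinct clusters and not over all lines. Distinct clusters sum to 950049 CPM in the BY_DEH+ DEH library and 950690 CPM in the BY_DEH+ glucose library.

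The table had 29960 lines for 27176 distinct clusters. Each line was summed once under its gene, so a cluster listed under several genes counts in full under each. This gene assignment does not follow strand: 4.25% of the CPM on DEH came from clusters on the other strand. Genes had to reach 10 CPM in either library, and 1 CPM was added before log2. A gene was called at 4-fold, and lists were counted at 2-fold. All CPM values were whole multiples of 1 read within 0.15 of a read, and read numbers gave exact binomial intervals for ratios and Wilson intervals for shares at 95%. Start use was the percentage of a gene's signal that lay in its main cluster, the one with the highest mean of its DEH and glucose shares.

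Genes were picked by rule: the 20 highest and 20 lowest ratios, the 4 largest changes in each list, every isoenzyme and carnitine gene, the 10 highest levels per library, the 10 largest start shifts and the 6 unassigned clusters with the largest ratio each way. Not all of these are named above, such as the isoenzyme genes HXK1 (log2 0.07) and PDC6 (log2 -1.64). Of 20 measured trehalose and glycogen genes, also left out above, 9 were 2-fold or more lower on DEH and 2 higher, with a median of -0.90. Over all genes 9.90% were lower and 10.6% higher. Other genes were named after their values were seen. The members, the 52 lists and the comparisons were chosen with earlier results of these data known. Nothing in the sources says which cultures were repeated. Sequences were read from RefSeq R64. The scripts were tested on simulated data and used Python 3.11.15, pandas 2.3.3, NumPy 2.4.6, SciPy 1.17.1 and matplotlib 3.10.9.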

Additional observations from a re-analysis of the deposited data

Results flagged for a closer look

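Values of 5 genes were 4-fold or more apart between DEH and glucose in BY_DEH+ and 2-fold or more apart the opposite way in BY_DEH++. The difference between the strains was not tested, since each group is 1 library.

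DCD1, the dCMP deaminase, had 547 CPM on DEH and 33.9 CPM on glucose in BY_DEH+ (log2 3.97), and 553 CPM on DEH and 2192 CPM on glucose in BY_DEH++ (log2 -1.98). Both DEH libraries are alike here and it is the glucose libraries that differ. Its start use differs too: in BY_DEH+ the cluster at -552 had 534 CPM on DEH and 6.47 CPM on glucose, and the one at -59 had 11.3 CPM on DEH and 23.1 CPM on glucose.

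DSE1, a daughter cell gene, had 59.7 CPM on DEH and 356 CPM on glucose in BY_DEH+ (log2 -2.56), and 1069.6 CPM on DEH and 524 CPM on glucose in BY_DEH++ (log2 1.03). MEP2, an ammonium permease, had 15.6 CPM on DEH and 68.6 CPM on glucose in BY_DEH+ (log2 -2.07), and 149 CPM on DEH and 72.5 CPM on glucose in BY_DEH++ (log2 1.03). UIP4, a protein that binds the SUMO protease Ulp1, had 66.1 CPM on DEH and 15.4 CPM on glucose in BY_DEH+ (log2 2.04), and 10.4 CPM on DEH and 26.6 CPM on glucose in BY_DEH++ (log2 -1.27). PHO12, an acid phosphatase, had 21.8 CPM on DEH and 277 CPM on glucose in BY_DEH+ (log2 -3.61), and 1028 CPM on DEH and 380.4 CPM on glucose in BY_DEH++ (log2 1.43), and since its copy PHO11 is nearly identical, its reads cannot be placed for certain.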

How the results depend on the processing

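No paired analysis was possible because each group has 1 library. Another pseudocount or filter cannot turn the sign of a gene's log2 ratio, so these settings do not check it. Of the 262 genes picked by rule, 259 kept their sign under median-of-ratios scaling. Genes named outside the rule are not among the 262. Of the 150 that were 4-fold or more apart, 112 stayed so with a pseudocount of 10 CPM. With a pseudocount of 10 CPM, 106 genes were 4-fold lower, 28 were lower in both strains, 14 unassigned clusters were higher and 35 lower, antisense signal was higher for 6 genes and lower for 17, and 3 higher genes had lower antisense signal. With 10 CPM asked of both libraries, 108 genes were lower, 27 of them in both strains. A 30-point limit left 150 start shifts, and clusters assigned to 1 gene left 174 in fewer genes. Clusters in a window around the coding start, an alternative for the strain comparison chosen after seeing the data, gave 85 genes higher in both strains.

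Signs turned where clusters are shared or lie on the other strand. CDA1 went to -1.38 by window and -1.02 on its own strand, FLO5 to 0.02 on its own strand, GRX4 to 4.22 by window and with 1-gene clusters, AGE1 to 0.72 by window, and SPC24 to -0.95 by window. ECM32 went to 1.46 by window and 1.11 with 1-gene clusters, HOM2 to 1.04 and HEF3 to -0.61 with 1-gene clusters, and YDR524W-A to 0.20 with 1-gene clusters or only the first gene listed. The strand and first-gene settings were also chosen after seeing the data. Depth limits what is listed at 0, and the spread between cultures is not known.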
